A study of Mus musculus with 9 samples.

Results

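Gene expression was described in a line of mesenchymal stromal cells from mouse bone marrow, kept for 24 h in medium with phosphate-buffered saline (PBS), the vehicle arm of a study of 9 RNA sequencing libraries in 3 groups. The members were chosen by their label alone: the 3 libraries named MSC+PBS, numbered 1 to 3, of the 9. The other groups received peritoneal fluid of control mice or of mice given TNBS for 3 days, and no value of theirs was used. Per the labels the cells are a line marked SV40, of the type BMMSC, from bone marrow, grown in DMEM/F12 with 10% serum, and all groups share the line and the medium. SV40 is a virus whose large T antigen is commonly used to immortalise cells. The sources used here do not give the mouse strain, sex and age behind the line or say whether it is 1 clone. Nothing in the labels says that the 3 libraries came from separate cultures, so the spread between them may be technical.

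Mesenchymal stromal cells of bone marrow are adherent cells of the fibroblast lineage that lie around the vessels of the marrow, build its matrix, and secrete the factors that hold and feed blood stem cells. In culture they are recognised by surface antigens such as Thy1, CD44 and Sca-1 together with the lack of antigens of blood and endothelium, and they can be driven to form bone, fat and cartilage. They are studied as a cell therapy for inflamed tissue because they can release mediators that dampen immune cells, such as prostaglandins and nitric oxide.

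The libraries held 17.9, 17.98 and 20.3 M fragments assigned to genes, at which 3 fragments in 1 kb of exon correspond to 0.168, 0.167 and 0.148 FPKM. FPKM divides the fragments of a gene by its length and by the depth of the library. The length that fits these values is that of all annotated exons of a gene merged, not that of the transcript in use. Genes with much longer merged exons than their transcript read low. Orders between genes are therefore orders of FPKM, and not of transcript number. Of 21959 genes in the table, 10265 were expressed, defined here as an FPKM of at least 1 in each of the 3 libraries, which is 46.7% of all genes. Every list count below is to be read against this share, and a count near it sets no list apart. The mean reached 10 FPKM in 4803 genes (21.9%) and 100 FPKM in 381 genes (1.74%), while 6720 genes (30.6%) were listed at 0 in every library. The median over all genes was 0.628 FPKM, and the median over expressed genes was 9.02. The libraries were close to each other: the median coefficient of variation of expressed genes was 4.84%, falling from 9.66% for genes between 1 and 2 FPKM to 3.62% for genes between 10 and 100. Values after ± are SD over the 3 libraries. A gene is called higher than another only where its 3 values all lie above the other's 3 values. These are descriptions of 1 group, and no test between groups was made.

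All 5 genes taken as markers of the line were expressed, and each had a mean above 10 FPKM. Col1a1, which encodes the main chain of type I collagen (chr11:94936224-94953042, plus strand, mm10), had 321, 268 and 289 FPKM in libraries 1, 2 and 3. Acta2, the smooth muscle actin of contractile stromal cells (chr19:34241090-34255590, minus strand), had 260.1, 261 and 266 FPKM. Ly6a, the surface antigen Sca-1 (chr15:74994877-74998031, minus strand), had 245, 259 and 239 FPKM. These 3 genes kept the order Col1a1, Acta2, Ly6a without overlap between neighbours, and all lay among the 1.74% of genes with a mean of 100 FPKM or more. Thy1, the antigen CD90 (chr9:44043384-44048579, plus strand), had 55.3, 53.4 and 56.3 FPKM, and Pdgfrb, a receptor for platelet-derived growth factor (chr18:61045150-61085061, plus strand), had 19.6, 19.0 and 19.3. Both lay below the first 3 in every library, and Pdgfrb below Thy1. Ly6a has a near relative, Ly6c1, listed at 19.9 ± 0.607 FPKM, and the sources used here do not say how fragments shared by such genes were assigned.

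Of the wider list of mesenchymal stromal surface antigens, 18 of 22 were expressed (81.8%), with a median of 17.2 FPKM. Itgb1, the beta1 integrin chain CD29 through which cells hold on to matrix, had the highest level at 476, 485 and 499 FPKM. The tetraspanins Cd63 and Cd9 followed Ly6a at 171 ± 4.93 and 119 ± 4.27 FPKM, and the hyaluronan receptor Cd44 had 89.5 ± 1.399. The integrin chains Itga5 (46.0 ± 2.83) and Itgav (38.7 ± 1.09) and the adhesion molecule Vcam1 (37.9 ± 0.739) formed a middle group, in which Itgav and Vcam1 overlapped. The endothelial and stromal co-receptor Eng, CD105, had 15.4, 14.5 and 15.3 FPKM and overlapped with Cd248 at 14.6 ± 0.383, a stromal surface protein also called endosialin. Pdgfra, the second receptor for platelet-derived growth factor, had 13.2, 12.3 and 11.8 FPKM, lower than Pdgfrb in every library. Nt5e, the CD73 ectoenzyme that makes adenosine and an antigen by which human stromal cells are defined, was low but above the limit at 2.02, 1.52 and 2.13 FPKM. The 4 members below the limit were Icam1 (0.899, 1.51 and 1.09 FPKM), Cd200 (0.782 ± 0.0911), the pericyte proteoglycan Cspg4, also called NG2 (0.174, 0.107 and 0.202), and the nerve growth factor receptor Ngfr, which had 2 fragments in library 3 and none in the others. Icam1 passed 1 FPKM in libraries 2 and 3 and missed it in library 1.

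**Figure D1:**
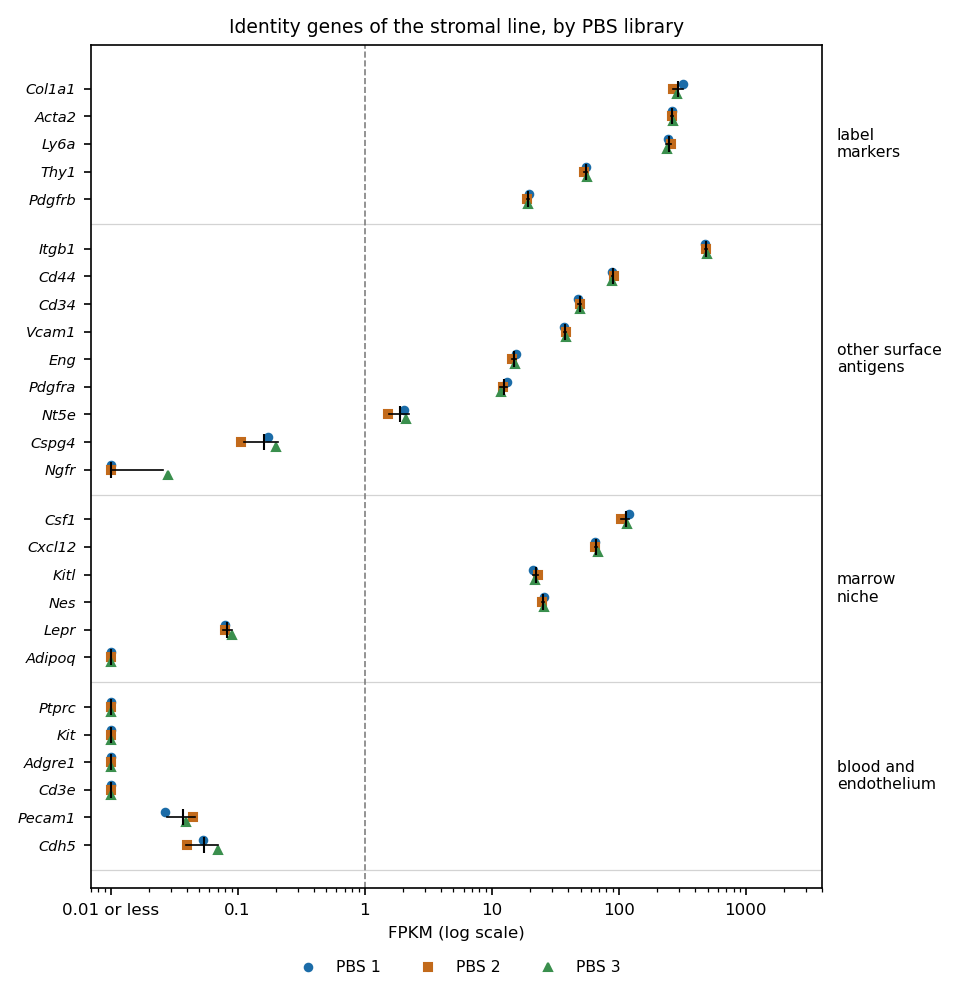
FPKM of identity genes on a log scale, with 1 symbol per PBS library, a tick at the mean and a line for the mean ± SD; values under 0.01 are drawn at 0.01 and the dashed line is 1 FPKM. The 5 markers sit between 19.3 and 292 FPKM on average, while Ptprc, Kit, Adgre1 and Cd3e sit at or under 0.01.

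Genes of the marrow niche, the setting in which blood stem cells are kept, were expressed in 12 of 16 cases (75.0%). Csf1, the growth factor of macrophages, led with 119.9, 104 and 115 FPKM. Prrx1, a homeobox factor of limb and skeletal mesenchyme, had 74.8, 74.3 and 71.3 FPKM, and Cxcl12, the chemokine that retains blood stem cells in marrow, had 65.3, 65.4 and 68.0. The levels of these 3 genes did not overlap. Kitl, the stem cell factor, had 21.3, 23.03 and 22.0 FPKM, below the BMP antagonist Grem1 (31.9 ± 3.16) and the filament protein nestin, Nes (25.5 ± 0.429). The transcription factors Foxc1 (3.50 ± 0.160), Ebf3 (2.17 ± 0.158) and Ebf1 (1.75 ± 0.0404), which mark reticular stromal cells in marrow, were expressed at low levels. Ebf3 lay above Ebf1 in every library, and the vessel factor Angpt1 (1.90 ± 0.261) overlapped with both. Lepr, the leptin receptor by which adult perivascular marrow stroma is often recognised, had 0.0794, 0.0789 and 0.0907 FPKM, from 10 to 13 fragments per library. Adipoq, another gene of that population, was listed at 0, where 3 fragments would be 0.122 FPKM. In bulk RNA a lower share of cells of 1 type cannot be told apart from less RNA per cell.

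Of the fibroblast genes, 11 of 19 were expressed (57.9%), with S100a6, a calcium-binding protein, at 459 ± 27.6 and vimentin, Vim, at 398 ± 3.09 FPKM. The small proteoglycan Dcn (206 ± 5.61), the mucin-like Pdpn (169 ± 7.79) and the actin-severing Gsn (141 ± 2.52) followed in that order without overlap. Cd34, known as an antigen of blood stem cells that connective tissue fibroblasts also carry, had 47.5, 49.9 and 49.95 FPKM. The elastic fibre gene Mfap5 had 3.45, 3.67 and 3.35 FPKM. Pi16 was listed at 0, Clec3b had 0.127 ± 0.0365, and Dpt had 1.20, 1.39 and 0.685 FPKM. The fibroblast protease Fap had 0.187 ± 0.0523 FPKM. S100a4 had 0.610 ± 0.333 FPKM, but 51.7% of its exon bases lie under exons of Gm42674. The sources used here do not give the strand used in counting. Fragments in such shared bases may have been left out or assigned to the other gene, so values of genes with large overlaps are uncertain.

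Of the smooth muscle and pericyte list 8 of 17 were expressed (47.1%), close to the 46.7% of all genes. Below Acta2 came the tropomyosin Tpm1 at 139 ± 5.06, the myosin light chain Myl9 at 86.1 ± 2.44, Tpm2 at 52.3 ± 1.66 and the enteric actin Actg2 at 12.5 ± 0.980 FPKM. Smoothelin, Smtn, had 7.46, 6.46 and 7.64 FPKM, calponin, Cnn1, 2.72, 2.20 and 2.86 and the leiomodin Lmod1 2.47, 1.76 and 2.68. Myh11, the smooth muscle myosin heavy chain that marks mature muscle, had 0.0221, 0.0220 and 0.00648 FPKM, and its activator Myocd was listed at 0 in every library. Tagln, usually abundant in cells with Acta2, had 0.169, 0.0839 and 0.149 FPKM, but 67.9% of its exon bases lie under exons of Gm48529, so its value is uncertain. The pericyte channels Kcnj8 (0.00644 ± 0.0111) and Abcc9 (listed at 0) were both under 0.1 FPKM, while Rgs5 had 0.862, 1.09 and 0.909 FPKM.

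At the limit of 1 FPKM, genes of the bone, fat and cartilage lineages were expressed at lower shares than all genes. The osteogenic list had 4 of 18 expressed (22.2%), the adipogenic list 5 of 16 (31.2%) and the chondrogenic list 2 of 16 (12.5%). Spp1, the phosphoprotein osteopontin that many activated cells also secrete (chr5:104435118-104441050, plus strand), had 1234, 1243 and 1292 FPKM, which put it among the 20 highest genes of the table. Sparc, osteonectin, had 394, 375 and 397 FPKM. Runx2, the regulator that starts the bone programme, had 5.66, 5.29 and 5.42 FPKM, and all 3 values lay above those of the homeobox factor Msx2 (1.43 ± 0.0728). The genes of committed osteoblasts were near or at 0: the alkaline phosphatase Alpl had 0.125, 0.0414 and 0.0610 FPKM, the regulator Sp7 0.0165, 0.0164 and 0.0145, and Ibsp, Bglap2, Dmp1 and Sost were listed at 0. Osteocalcin, Bglap, had 0, 0.180 and 0.239 FPKM.

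In the adipogenic list the lipid enzymes Scd1 (88.2, 83.6 and 84.0 FPKM) and Fasn (31.0, 26.1 and 27.7) were highest, both of which growing cells of many kinds use. The early factor Cebpd had 11.9 ± 0.574 FPKM and Cebpb 6.20 ± 1.16, the latter with 20.7% of its exon bases shared with another gene. The master regulators of the fat cell, Pparg (0.701, 0.527 and 0.850) and Cebpa (0.361, 0.570 and 0.560), stayed under 1 FPKM in every library and overlapped. The fatty acid carrier Fabp4 had 1.28, 1.26 and 1.37 FPKM, while the lipid droplet coat Plin1, the scavenger receptor Cd36, Cfd and leptin, Lep, were listed at 0. Rescaling to TPM, on which every library has the same sum, raised the adipogenic count to 8 of 16. The count over all genes rose to 11477 of 21959, so on that scale the adipogenic share was close to that of all genes. TPM values are larger here, so the same limit is met at a lower FPKM. In the chondrogenic list only Col11a1 (10.1, 9.29 and 9.97) and Sox9 (5.00, 4.40 and 4.27), the regulator of cartilage, were expressed, and the cartilage proteins Acan and Col9a1 were listed at 0 with Col2a1 at 0.0280 ± 0.0210 FPKM.

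Genes of other cell types were largely absent. Of the common haematopoietic genes 3 of 16 were expressed: Cd34, Runx1 (5.37 ± 0.378 FPKM) and Gata2 (3.19 ± 0.158), which stromal cells can also use. Ptprc, the pan-leukocyte antigen CD45, had 1 fragment in library 1 and none in libraries 2 and 3, and Kit, Spi1, Vav1 and Ikzf1 were listed at 0. For Kit, 3 fragments would be 0.0188 FPKM. The macrophage list had 2 of 20 expressed, the lipopolysaccharide co-receptor Cd14 (11.96, 13.5 and 13.2 FPKM) and the lysosomal Cd68 (1.87, 1.504 and 2.39). Adgre1, the antigen F4/80, the 3 chains of C1q and Tyrobp were listed at 0, Csf1r had 0.175, 0.299 and 0.153 FPKM, and Lyz2 had 0.207 ± 0.189. Itgam, CD11b, was listed at 0, but 68.7% of its exon bases lie under Gm49368. No neutrophil gene (0 of 14), T or NK cell gene (0 of 17) or mast cell and eosinophil gene (0 of 12) was expressed. The highest of these was Lck, a kinase of T cells, at 0.516, 0.816 and 0.790 FPKM. S100a8, S100a9, Mpo, Cd3e, Cd3d and Cpa3 were listed at 0.

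The B cell list had 1 of 12 expressed, Ebf1, which is shared with the niche list. Ms4a1 was listed at 0, and Pax5 had 0.424, 0.465 and 0.511 FPKM. The erythroid and megakaryocyte list had 1 of 16 expressed, the platelet chemokine Ppbp (1.29, 1.39 and 1.09 FPKM), and the 4 globin genes were listed at 0. Itga2b joined Ppbp when library 2 was left out, which made the count 2. The endothelial list had only Eng expressed (1 of 18): Pecam1 had 0.0270, 0.0446 and 0.0395 FPKM, Cdh5 0.0533, 0.0397 and 0.0702, Vwf 0.00697, 0.00692 and 0 and Kdr 0.0930, 0.111 and 0.153. Keratin 19 (4.83, 3.42 and 3.21) and keratin 18 (1.68, 1.63 and 1.75) were the expressed members of the epithelial list (2 of 18), with Epcam at 0.229 ± 0.0660, Cdh1 at 0.00717 ± 0.0124 and Krt5 and Krt14 listed at 0. No hepatocyte or intestinal gene was expressed (0 of 14), and of 14 skeletal and cardiac muscle genes Mylpf (1.63, 1.73 and 1.07) was expressed, with Myod1 and Myog listed at 0.

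Mesothelial and neuronal lists held exceptions. Msln, the surface protein mesothelin, had 37.7, 37.3 and 39.4 FPKM in the 3 libraries. Of the mesothelial list 4 of 14 were expressed, Msln, the antiprotease Slpi (4.17, 5.28 and 3.71) and the keratins Krt19 and Krt18 named above. Among the members under the limit Wt1 had 0.0813, 0.0539 and 0.0874 FPKM, Upk3b 0, 0 and 0.0139, and Lrrn4 and Muc16 were listed at 0. In the neuronal and glial list 6 of 18 were expressed, led by the tubulin Tubb3 (13.97, 12.98 and 12.6), the adhesion molecule Ncam1 (7.65, 6.99 and 7.34) and the tubulin regulator Stmn2 (3.54, 4.64 and 3.30). Rbfox3, Sox10 and Olig2, which mark neurons and glia more narrowly, were listed at 0 and Snap25 had 0.00514 ± 0.00448 FPKM. The 4 genes of the Y chromosome in the table, Ddx3y, Eif2s3y, Kdm5d and Uty, were listed at 0 in all 3 libraries, with floors of 3 fragments between 0.0172 and 0.0404 FPKM.

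**Figure D2:**
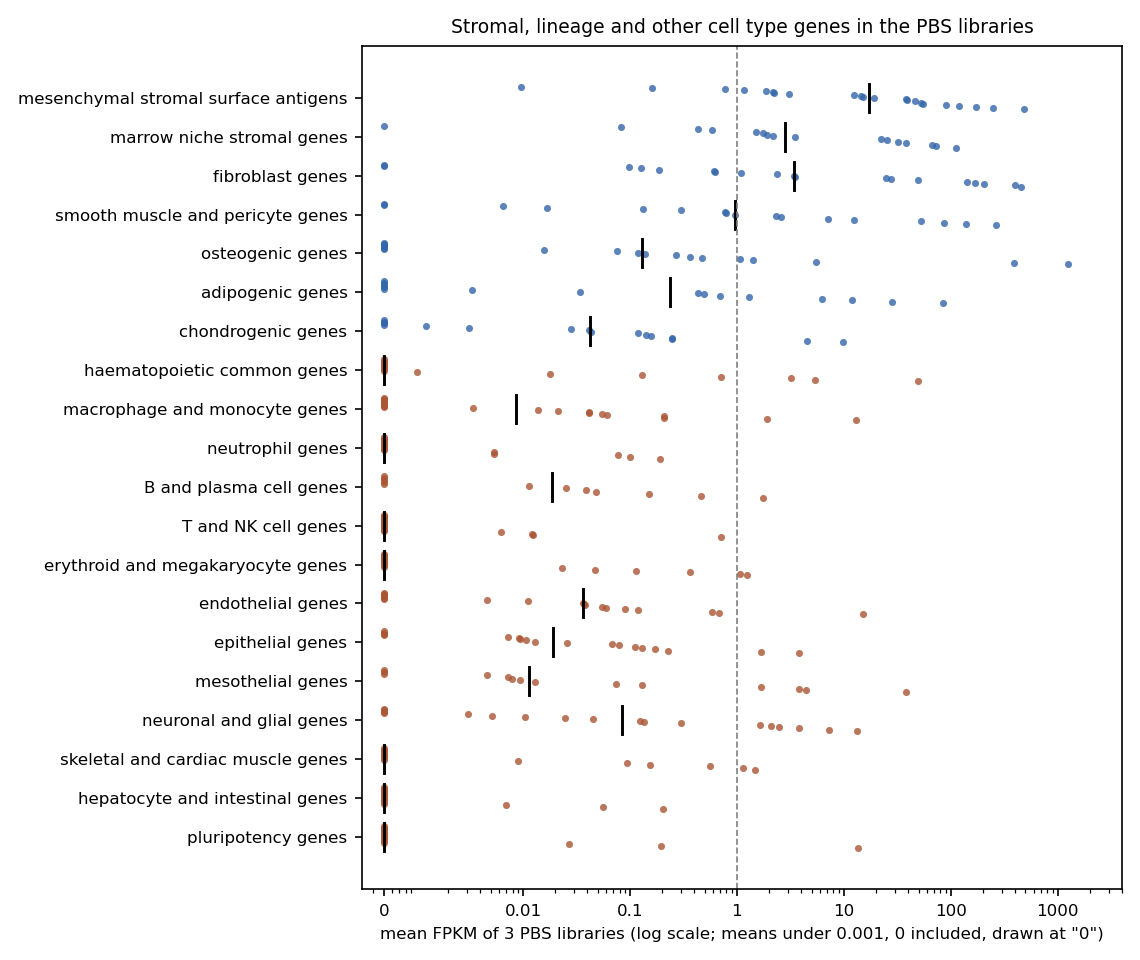
Mean FPKM of every member of 20 gene lists on a log scale, with a dot per gene, a bar at the list's median, stromal and differentiation lists in blue and other cell types in brown; means under 0.001 are drawn at 0 and the dashed line is 1 FPKM. The median of the surface antigens is 17.2 FPKM, and the medians of the haematopoietic, neutrophil, T and NK cell, erythroid, muscle, hepatocyte and pluripotency lists are drawn at 0.

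Of 44 collagen genes 19 were expressed (43.2%), slightly under the 46.7% of all genes, and 15 had a mean of 10 FPKM or more. The chains of type I collagen were highest, Col1a2 at 346, 309.7 and 337 FPKM beside Col1a1, and their values overlapped. Next came the microfibrillar Col6a1 (169.7 ± 4.95) and the fibril-nucleating Col5a2 (119.9 ± 4.65). Col3a1, which stands beside type I collagen in most soft tissues, had 48.7, 45.3 and 46.2 FPKM and overlapped with the basement membrane chain Col4a1 (49.4 ± 2.40). The chains of the other collagen VI subunits were lower than Col6a1 in every library, Col6a2 at 31.4 ± 0.366 and Col6a3 at 16.6 ± 1.17 FPKM. Col8a1, Col5a1, Col4a2, Col16a1 and Col12a1 had means from 26.1 to 60.6 FPKM. Of the collagens under the limit, Col14a1 had 0.0820 ± 0.0201, Col15a1 0.0202 ± 0.0140 and the cartilage Col2a1 0.0280 ± 0.0210 FPKM.

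The enzymes that fold and crosslink collagen were all expressed, 19 of 19, with a median of 35.2 FPKM. Lox, the oxidase that starts the crosslinks, had 597, 555 and 585 FPKM, and the collagen chaperone Serpinh1, also called HSP47, had 536, 549.9 and 567. The values of Lox and Serpinh1 overlapped, and both lay above those of P4hb, a subunit of prolyl hydroxylase (449.6, 441 and 442). The other hydroxylase genes P4ha1 (218 ± 3.79) and Plod2 (74.4 ± 2.89) and the procollagen enhancer Pcolce (121 ± 4.59) followed. In FPKM, Lox was higher than either type I collagen chain in every library. Merged exons span 4778 bases for Lox and 12426 for Col1a2, so the order depends on the length used. Col1a2 had more fragments than Lox, 76715, 69193 and 85032 against 50955, 47706 and 56805 in libraries 1, 2 and 3.

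Among basement membrane genes 13 of 19 were expressed (68.4%). Nidogen, Nid1, had 110.2, 107 and 103 FPKM, above Col4a1 and the laminin chains Lamc1 (44.2 ± 2.39) and Lamb1 (42.6 ± 0.943), which overlapped with each other. Of the laminin alpha chains, which set the laminin type, Lama4 (11.2 ± 0.530) and Lama2 (2.91 ± 0.101) were expressed, while Lama1 (0.0959 ± 0.0351) and Lama3 (0.0963 ± 0.0208) were under 0.1 FPKM and Lama5 had 0.652 ± 0.0455. The proteoglycan perlecan, Hspg2, had 35.4, 25.6 and 27.5 FPKM, with library 1 above the others and a coefficient of variation of 17.6%.

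Of the matricellular proteins, which tune how cells meet the matrix, 14 of 24 were expressed. Below Spp1 and Sparc came fibronectin, Fn1, at 327, 270.3 and 291 FPKM, the thrombospondins Thbs1 (196 ± 5.79) and Thbs2 (108 ± 5.66), Ccn1 (139.6 ± 2.92) and tenascin C, Tnc (47.9 ± 2.10). Ccn2 had 24.1 ± 1.33 FPKM with 23.2% of its exon bases shared with Gm15270. Periostin, Postn, a gene of bone lining and activated fibroblasts, had 1.81, 1.44 and 1.87 FPKM. The elastic fibre list had 14 of 17 expressed (82.4%), led by fibulin 2, Fbln2 (144 ± 5.16), and the scaffold genes Efemp2 (46.7 ± 0.929), Ltbp1 (40.3 ± 1.33) and Emilin1 (32.5 ± 0.914). Elastin itself, Eln, had 0, 0.00687 and 0.0122 FPKM. The fibrillin Fbn1 had 17.7 ± 0.809 FPKM with 20.1% of its exon bases shared.

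Small leucine-rich proteoglycans, which bind collagen fibrils, were expressed in 5 of 11 cases (45.5%, near the share of all genes). Biglycan, Bgn, had 343, 317 and 335 FPKM, above decorin in every library, and osteoglycin, Ogn, had 51.3, 53.8 and 54.7. Lumican, Lum, had 0.229, 0.0454 and 0.0201 FPKM and fibromodulin, Fmod, 0.0354 ± 0.0474. Of the hyaluronan and large proteoglycan list 15 of 20 were expressed, with the syndecans Sdc4 (145 ± 5.00), Sdc2 (71.6 ± 2.42) and Sdc1 (53.3 ± 1.41) ahead of versican, Vcan (15.9 ± 0.459). The hyaluronan synthase Has2 had 5.37 ± 0.555 FPKM, Has1 1.29 ± 0.287 and Has3 0.132 ± 0.0250.

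Of the matrix metalloproteinases, the enzymes that cut matrix, 9 of 23 were expressed (39.1%, under the share of all genes). The gelatinase Mmp2 had 52.9, 47.0 and 53.9 FPKM, and Mmp14, its membrane-bound activator, had 38.0, 35.9 and 36.8. Mmp11 (18.4 ± 1.04), Mmp23 (13.4 ± 0.771) and Mmp19 (12.3 ± 0.599, with 28.3% of its exon bases shared) came next. Mmp9 had 4.07, 3.87 and 4.25 FPKM, the stromelysin Mmp3 3.48, 2.25 and 2.38 and the collagenase Mmp13 1.70, 1.08 and 1.399. Of their 4 inhibitors 2 stood higher: Timp1 had 214, 220.4 and 221 FPKM and Timp2 168, 169.6 and 165, each above Mmp2 in every library. Timp3 had 10.4 ± 0.175 FPKM with 21.3% of its exon bases shared, and Timp4 had 0.00278 ± 0.00482. The serpin Serpinf1, known as PEDF (106 ± 2.88), was also expressed.

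Chemokines, the secreted proteins that call in leukocytes, were expressed in 14 of 39 cases (35.9%). A mean of 10 FPKM or more was reached by 8 of the 39, close to the 21.9% of all genes. A mean of 100 FPKM or more was reached by 4 of the 39, against 1.74% of all genes. Ccl2, which draws monocytes, had 314, 343 and 326 FPKM, and its close relative Ccl7 had 250.1, 279.6 and 283. The neutrophil chemokines Cxcl5 and Cxcl1 had 195, 224 and 191 and 119, 139 and 121 FPKM. These 4 genes ran in the order named without overlap between neighbours. Ccl5, which draws T cells and monocytes, had 94.9, 86.4 and 83.7 FPKM and overlapped with the interferon-induced T cell chemokine Cxcl10 (86.3, 87.0 and 87.3). Both lay above Cxcl12 in every library. The membrane-bound Cx3cl1 had 22.1 ± 1.41 and Cxcl16 7.44 ± 0.691 FPKM. The lymphoid tissue chemokines Ccl19, Ccl21a and Cxcl13 and the eosinophil chemokine Ccl24 were listed at 0, and Ccl11 had 0.0606 ± 0.105 FPKM.

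Reference promoters are shown for 3 of the genes above or below, Cxcl10 and B2m, which interferons are known to induce, and Cxcl12, the niche chemokine, since the series measured no promoter itself. Each is the 250 bases before the start of the gene from the RefSeq promoter table for GRCm38.p6, the assembly called mm10, 5′ to 3′ on the strand of the gene. Starts are those of RefSeq, and can differ by some bases from the GENCODE coordinates given for genes. The windows are printed with capitals marking motif matches on either strand. The motifs searched were the ISRE core of interferon-responsive promoters (GAAA, any 2 bases, GAAA), the GC box GGGCGG and the TATA box core TATAAA, and matches of different motifs did not overlap.
Cxcl10 (chr5:92348890-92349139, minus strand): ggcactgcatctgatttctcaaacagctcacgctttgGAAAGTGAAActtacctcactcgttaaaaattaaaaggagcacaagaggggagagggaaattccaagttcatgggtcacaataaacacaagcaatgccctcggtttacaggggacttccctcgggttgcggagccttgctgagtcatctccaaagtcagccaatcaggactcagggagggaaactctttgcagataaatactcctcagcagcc
B2m (chr2:122147437-122147686, plus strand): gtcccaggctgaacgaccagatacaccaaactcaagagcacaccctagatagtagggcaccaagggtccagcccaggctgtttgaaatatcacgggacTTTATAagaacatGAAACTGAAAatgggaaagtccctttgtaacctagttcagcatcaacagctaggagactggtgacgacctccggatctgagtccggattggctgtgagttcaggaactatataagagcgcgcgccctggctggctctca
Cxcl12 (chr6:117168285-117168534, plus strand): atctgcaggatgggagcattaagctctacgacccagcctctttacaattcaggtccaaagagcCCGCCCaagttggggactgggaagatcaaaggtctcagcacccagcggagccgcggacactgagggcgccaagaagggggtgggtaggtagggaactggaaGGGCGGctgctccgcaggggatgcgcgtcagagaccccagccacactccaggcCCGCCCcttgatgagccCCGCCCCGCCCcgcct
The Cxcl10 window held 1 ISRE core, from base 213 to 204 before the start. The B2m window held 1 ISRE core, from base 139 to 130 before the start, and 1 TATA box core on the opposite strand, from base 152 to 147. The Cxcl12 window held 5 GC boxes, of which 2 share 1 base, and neither of the other motifs. The ISRE core was present in 3.04% of 27025 promoter windows of this length, in 2.59% of 8239 windows of expressed genes and in 4.32% of 301 windows of genes with a mean of 100 FPKM or more. The GC box was present in 32.9%, 62.9% and 58.8% of the same windows, and the TATA box core in 12.97%, 5.81% and 8.97%. A match is a run of letters and not a measured binding site.

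Interleukins were expressed in 7 of 36 cases (19.4%; 11 on the TPM scale), and 18 were listed at 0. Il33, an alarmin of stromal and barrier cells, was the highest with 36.4, 34.9 and 34.1 FPKM. Il18 had 8.14 ± 0.382 FPKM. Il6, a main cytokine of stromal cells, had 5.42, 6.92 and 7.13 FPKM, lowest in library 1. Il15 (4.67 ± 0.919), Il4 (2.65 ± 0.591), the Csf1 receptor ligand Il34 (2.00 ± 0.371) and the lymphoid factor Il7 (1.497 ± 0.0561) were the others expressed. Il1b, Il12b, Il13, Il17a and Il2 were listed at 0, and Il10 had 3 fragments in library 3 and none in the others. Among colony stimulating and gp130 cytokines 7 of 15 were expressed (46.7%, the share of all genes), and 11 on the TPM scale. Below Csf1 and Kitl stood Tslp, which acts on dendritic cells, at 15.3, 18.3 and 14.1 FPKM, and Lif, which keeps stem cells undifferentiated, at 10.1, 10.1 and 10.2. Csf2 had 1.82, 0.695 and 1.78 FPKM and missed the limit in library 2, while Csf3 had 0.125 ± 0.0416 FPKM.

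Of 17 TNF superfamily ligands 2 were expressed, Tnfsf9, the ligand of 4-1BB (3.56, 3.41 and 3.20 FPKM), and Tnfsf12, the cytokine TWEAK (2.56 ± 0.484). Tnfsf12 shares 48.3% of its exon bases with Tnfsfm13, and without genes of large overlap the count was 1. Tnf itself had 0.171, 0.0679 and 0.0600 FPKM and Tnfsf11, the osteoclast factor RANKL, had 0.118 ± 0.0399, with its decoy receptor Tnfrsf11b at 0.472 ± 0.0363.

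TGF-beta superfamily ligands were expressed in 7 of 32 cases (21.9%). Inhba, the subunit of activin A, had 37.4, 35.8 and 39.4 FPKM, above Gdf11 (12.8 ± 0.425). Tgfb3 (8.62, 7.97 and 7.45) and Tgfb1 (7.77, 6.23 and 6.86) overlapped, and Tgfb2 had 2.55 ± 0.183 FPKM. Bone morphogenetic proteins stood low: Bmp4 had 0.586 ± 0.213, Bmp6 0.450 ± 0.0931 and Bmp2 0.0819 ± 0.0423 FPKM, and Bmp7 was listed at 0. Of 14 antagonists of these ligands 9 were expressed (64.3%), at levels that differed widely. Fstl1 had 319, 305 and 305 FPKM, Twsg1 41.0 ± 0.656 and Grem1 30.7, 35.4 and 29.5. Others stood low: Fst had 2.53 and Fstl3 1.45 FPKM on average, both below Inhba, and Chrd had 0.545. Noggin, Nog, had 0.168 ± 0.00556 FPKM.

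Fgf7, the keratinocyte growth factor by which stroma feeds epithelium, was the 1 FGF ligand of high level, at 146, 151 and 140.1 FPKM. Fgf2 (3.57, 3.83 and 3.98) and Fgf10 (2.00, 1.61 and 1.68) were the other expressed members of 22, and on the TPM scale 5 were. Of 19 Wnt ligands 4 were expressed, Wnt10b (5.32, 5.20 and 6.42), Wnt5b (2.85 ± 0.169), Wnt5a (2.63 ± 0.0818) and Wnt10a (1.69 ± 0.0989), and a limit of 0.5 FPKM gave 7. Of the Wnt antagonists and R-spondins, Dkk3 (33.7, 34.5 and 32.7) and Dkk2 (16.3, 15.9 and 17.6) were highest, and Dkk1 was listed at 0.

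Other growth factors were expressed in 21 of 32 cases (65.6%). Vegfa, the main factor of vessel growth, had 67.6, 59.3 and 61.9 FPKM, and Vegfd (14.9 ± 0.167), Vegfc (12.9 ± 0.490) and Vegfb (11.97 ± 0.728) lay near each other. Pros1 (34.6, 35.8 and 33.8) and Gas6 (15.9, 14.7 and 13.1), the ligands of the TAM receptors, were both expressed. Gdnf, a nerve growth factor of the gut and kidney, had 13.5, 13.8 and 13.1 FPKM, pleiotrophin, Ptn, 15.8 ± 0.225, and the epidermal growth factor family members Hbegf and Ereg 13.2 ± 0.838 and 8.58 ± 1.11. Hgf, which drives epithelial repair, had 10.9, 11.1 and 10.9 FPKM. Igf1 had 0.887, 0.994 and 1.09 FPKM, at the limit. Igf2 was listed at 0, but 64.5% of its exon bases lie under Gm49394. Igfbp7 (119.5, 124 and 125) and Igfbp6 (59.5, 66.6 and 63.5) were the main binding proteins of insulin-like growth factors, and Igfbp5, common in other stromal cells, had 0.00619 ± 0.00536 FPKM.

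Mediators by which stromal cells act on immune cells were expressed in 15 of 22 cases (68.2%). Lgals1, galectin 1, was the highest of them and lay among the 5 highest genes of the table, at 2073, 2226 and 2118 FPKM. Ptgs2, the inducible cyclooxygenase COX-2, had 84.7, 85.8 and 81.1 FPKM, above the constitutive Ptgs1 (32.6, 36.8 and 32.7), and Ptges, the synthase that completes prostaglandin E2, had 28.8, 27.5 and 27.9. Nos2, which makes nitric oxide and is the main suppressive enzyme of mouse stromal cells, had 14.1, 11.8 and 11.8 FPKM, highest in library 1. Tnfaip6, the anti-inflammatory protein TSG-6, had 14.7, 15.3 and 16.3 FPKM. The heme oxygenase Hmox1 (35.5 ± 1.57), the pentraxin Ptx3 (26.7, 34.8 and 23.01) and the siderophore-binding Lcn2 (25.3 ± 4.16) were also expressed. The checkpoint ligand Cd274, PD-L1, had 1.21, 1.41 and 1.34 FPKM and its relative Pdcd1lg2 0.00836 ± 0.0145. Ido1, the tryptophan-degrading enzyme used by human stromal cells, had 0.0613, 0.0609 and 0.0539 FPKM and Arg1 0.0251, 0.0250 and 0.0442.

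**Figure D3:**
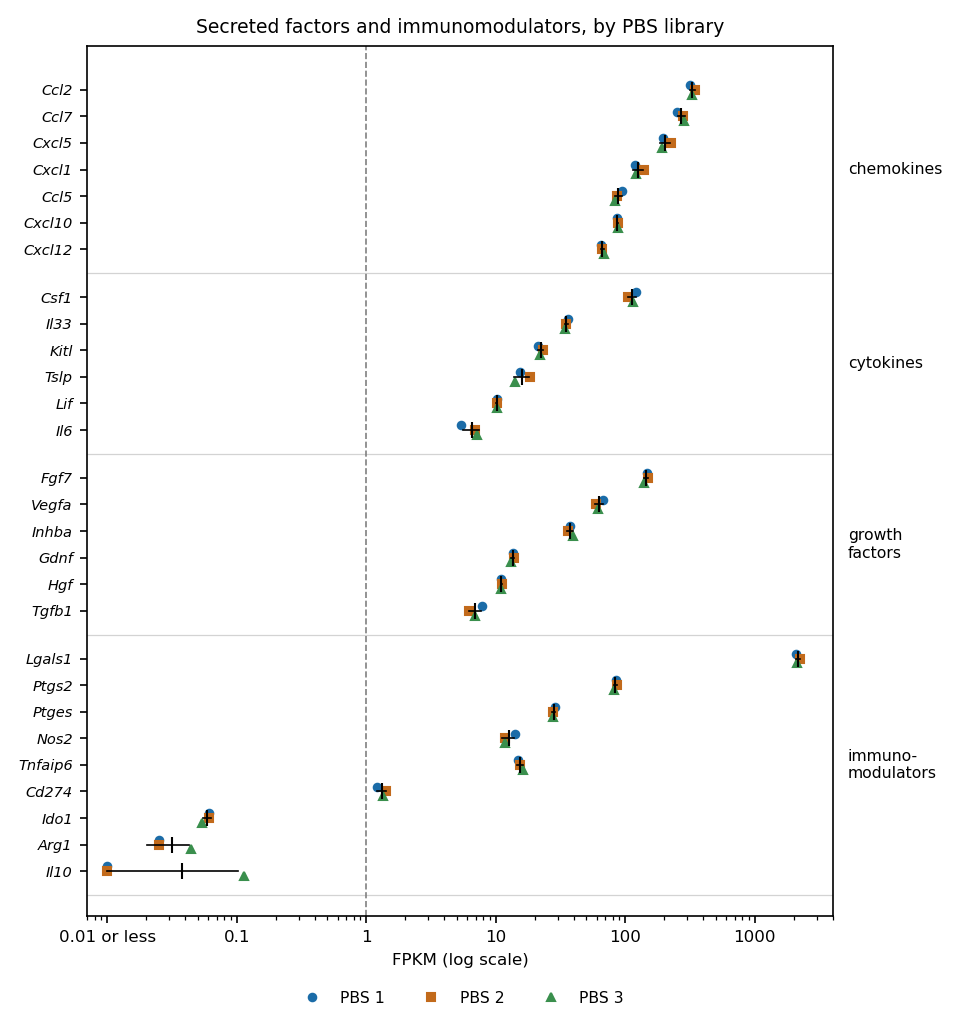
FPKM of secreted factors and immunomodulators on a log scale, with 1 symbol per PBS library, a tick at the mean and a line for the mean ± SD; values under 0.01 are drawn at 0.01 and the dashed line is 1 FPKM. Lgals1 lies at 2139 FPKM on average, the 7 chemokines between 66.3 and 328, and Ido1, Arg1 and Il10 under 0.1.

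Of the complement and acute phase genes 10 of 31 were expressed. C3, the hub of the complement cascade, had 173, 157 and 149.7 FPKM, and Saa3, an acute phase protein made outside the liver, had 106, 111 and 101. The C1 proteases C1ra (41.9 ± 0.696) and C1s1 (35.5 ± 2.77) were expressed while the 3 chains of C1q were listed at 0. C1ra has a near-identical copy, C1rb, listed at 0.150 ± 0.0786 FPKM, so the split between the copies is uncertain. Serping1, their inhibitor, had 4.99 ± 0.923 FPKM.

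Receptor tyrosine kinases were expressed in 21 of 52 cases (40.4%). Axl, a TAM receptor that dampens inflammation, stood well above the others at 239, 243 and 245 FPKM. The Wnt co-receptor Ryk had 53.04 ± 2.19 FPKM and the collagen receptor Ddr2 34.9 ± 2.39. Met, the receptor of Hgf, had 26.3, 25.96 and 26.1 FPKM, and Fgfr1 had 22.5, 21.2 and 21.7. Egfr (9.69 ± 0.297), Insr (5.07 ± 0.382) and Igf1r (4.86 ± 0.299) were lower, and Fgfr2, the receptor for Fgf7, had 1.21, 1.01 and 1.26 FPKM. Kit, Kdr, Flt1 (0.426 ± 0.0340) and Ret (0.277 ± 0.0911) were under the limit.

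TGF-beta superfamily receptors were expressed in 10 of 14 cases. The co-receptor Tgfbr3 had 43.3, 40.1 and 41.4 FPKM, and the signalling chains Tgfbr2 and Tgfbr1 had 15.6 ± 0.475 and 6.71 ± 0.117. Bmpr1a had 29.0 ± 0.796 FPKM, Acvr2a 3.53 ± 0.289 and Acvr2b 0.0955 ± 0.0154. Of the Wnt, Notch and Hedgehog receptors 17 of 25 were expressed: Smo had 21.9, 21.6 and 21.5 FPKM, Notch2 13.4 ± 1.08, Fzd2 14.1 ± 0.110 and Fzd7 12.6 ± 0.854, while Notch1 (0.493 ± 0.00645) and Notch3 (0.792 ± 0.192) were under 1 in every library.

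Among receptors for interferons and interleukins 20 of 44 were expressed (45.5%, near the 46.7% of all genes). Il13ra1 had 94.5, 91.3 and 93.8 FPKM, and Il1rl1, the receptor ST2 for Il33, had 78.7, 82.9 and 82.4. Il6st, the shared gp130 chain, had 65.4, 60.5 and 60.3 FPKM against 3.21, 2.80 and 2.76 for the Il6-specific chain Il6ra. Both chains of the interferon gamma receptor, Ifngr1 (51.4 ± 2.09) and Ifngr2 (35.3 ± 1.18), and of the type I receptor, Ifnar1 (19.6 ± 0.154) and Ifnar2 (9.83 ± 0.154), were expressed. Il1r1 had 9.05 ± 0.00165 FPKM, Il17ra 3.17 ± 0.217 and Il4ra 9.09 ± 0.755. The leukocyte chains Csf2rb, Il10ra and Csf3r were listed at 0.

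Of the TNF receptor superfamily 11 of 28 were expressed (17 on the TPM scale). Tnfrsf12a, the receptor of TWEAK, had 40.5, 47.7 and 45.4 FPKM and overlapped with Tnfrsf1a, the main receptor of TNF (41.5, 41.4 and 38.3). Tnfrsf9, known as 4-1BB on T cells, had 35.97, 34.5 and 33.0 FPKM, and Tnfrsf1b, Ltbr and the death receptor Fas lay together between 22.6 and 22.9 on average. Cd40 had 0.0493, 0.0653 and 0.0867 FPKM. Of the pattern recognition receptors 12 of 24 were expressed. Ddx58, the RNA sensor RIG-I, had 39.6, 37.9 and 38.8 FPKM, Tlr2 14.1, 13.4 and 12.5, the RNA sensor Ifih1 12.7 ± 0.294, Tlr4 7.96, 7.57 and 7.73 and Tlr3 6.601, 6.76 and 6.49. The endosomal Tlr8 and Tlr9 were listed at 0 and Tlr7 had 0.0451 ± 0.0559 FPKM.

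Chemokine receptors were almost absent: 1 of 24 was expressed, Ackr3, a scavenging receptor of Cxcl12, at 2.89, 2.97 and 2.70 FPKM. Ccrl2 had 0.560, 0.792 and 0.833 FPKM, and 22 of 24 had a mean under 0.1. Cxcr4, the signalling receptor of Cxcl12 through which cells home to marrow, was listed at 0, where 3 fragments would be 0.0929 FPKM. Of 26 integrin chains 9 were expressed and on the TPM scale 16. Below Itgb1 stood Itgb5 (73.7, 70.9 and 71.8), which pairs with Itgav, then Itga5, Itgav, Itga3 (11.4 ± 0.363), the laminin-binding Itga6 (6.20 ± 0.410) and Itga7 (5.31 ± 0.414). The collagen-binding chains Itga11 (0.472 ± 0.155) and Itga1 (0.329 ± 0.0490) and Itga4 (0.0580 ± 0.0133), which binds Vcam1, were under 1 FPKM.

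Other G protein coupled receptors were expressed in 8 of 42 cases (19.0%; 5 at a limit of 2 FPKM). The thrombin receptor F2r had 54.4, 54.2 and 55.2 FPKM, and the next, the bradykinin receptor Bdkrb2, had 6.10, 6.22 and 6.31. Of receptors for lipids, prostanoids and nucleosides 9 of 39 were expressed, 18 on the TPM scale. The lysophosphatidic acid receptor Lpar1 (20.2, 21.8 and 19.7) and the sphingosine phosphate receptor S1pr1 (17.7, 16.7 and 17.3) were highest, followed by S1pr3 (9.77 ± 0.289), Lpar4 (8.37 ± 0.477) and the adenosine receptor Adora2b (8.08 ± 0.365). The prostaglandin E2 receptors were under 1 FPKM: Ptger4 had 0.438, 0.376 and 0.607, Ptger2 0.270, 0.407 and 0.483 and Ptger3 0.00326 ± 0.00564, while Ptger1 (0.0490 ± 0.0307) shares 71.0% of its exon bases with another gene. Of nuclear receptors 20 of 47 were expressed (42.6%, near the 46.7% of all genes). The retinoic acid receptor Rarg (30.4, 29.9 and 27.9) and the glucocorticoid receptor Nr3c1 (22.9, 21.1 and 21.1) led. The vitamin D receptor Vdr had 2.13, 1.74 and 1.61 FPKM, and the estrogen receptor Esr1 0.684 ± 0.101.

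Ligands were set beside their known receptors in 53 pairs, which were chosen after their values were seen. Of the 47 ligands 46 were expressed, and 28 of these had at least 1 listed receptor expressed in the same libraries while 18 had none. Bulk RNA does not show whether both came from the same cell. The counts depend on the receptors listed: Gdnf counts through Gfra1 (2.17 FPKM), while Ret (0.277) was under the limit. Likewise Tslp counts through Crlf2 alone, while Il7r, the other chain of its receptor, was listed at 0. Pairs with both sides expressed numbered 30, and included Gas6 with Axl, Il33 with Il1rl1, Hgf with Met, Tslp with Crlf2 (3.86, 4.24 and 4.57 FPKM), Lif with Lifr (2.56, 2.24 and 2.36) and Spp1 with Cd44. For Il33 the receptor gene Il1rl1 lay above the ligand in every library. It has 1 value, so transcripts for its membrane and secreted forms cannot be told apart. Pairs with only the ligand expressed numbered 22, and in 8 pairs the receptor was listed at 0. Among these 8 were Kitl with Kit, Il7 with Il7r, Cxcl12 with Cxcr4, Ccl2 and Ccl7 with Ccr2, Cxcl10 with Cxcr3 and Cx3cl1 with Cx3cr1. Csf1 stood at 113 FPKM beside 0.209 for Csf1r, and Vegfa at 62.9 beside 0.119 for Kdr. The receptors listed at 0 are best known from blood cells.

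**Figure D4:**
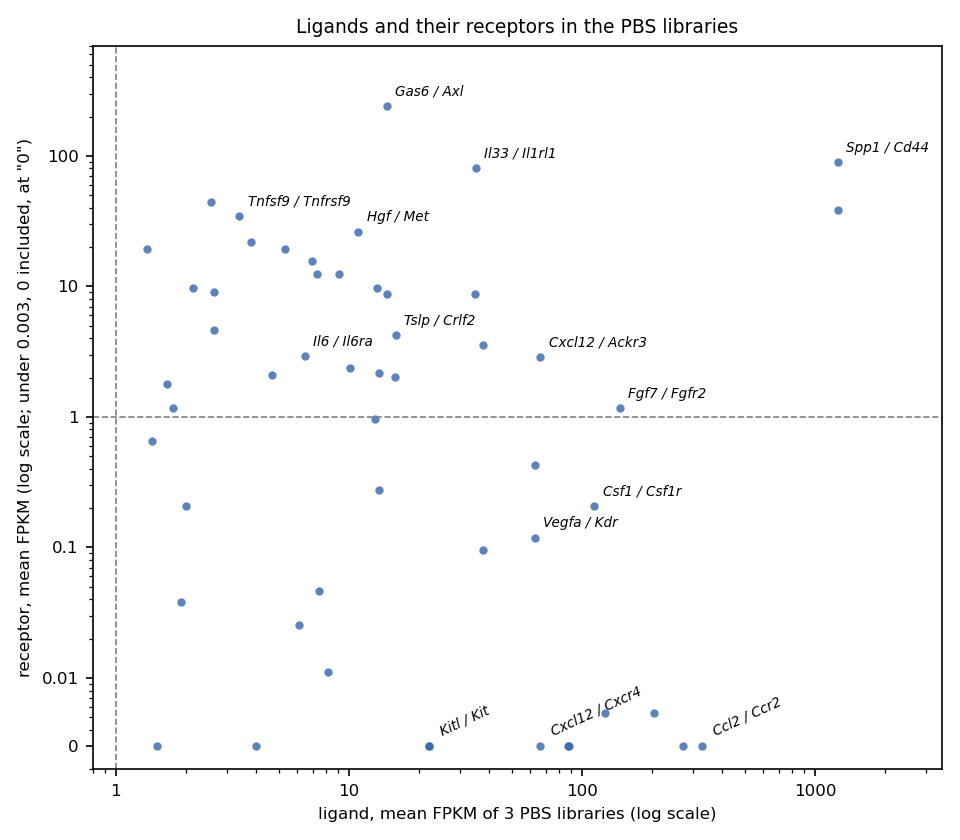
Mean FPKM of the ligand (horizontal) and of a receptor (vertical) in 53 pairs, both on log scales, with a dot per pair and dashed lines at 1 FPKM; receptor means under 0.003 are drawn at 0. The chemokine receptors lie under 0.1 FPKM except Ackr3, the partner of Cxcl12, and Gas6 with Axl has the highest receptor at 242 FPKM.

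Hox genes, which record the position along the body axis from which a cell derives, were expressed in 22 of 39 cases (56.4%). Hoxc6 was highest with 22.3, 22.2 and 22.2 FPKM, above Hoxc4 (10.8, 9.85 and 10.2) in every library. Hoxc11 (8.84, 9.49 and 8.86), Hoxa10 (8.22, 9.86 and 8.83), Hoxc10 (8.97, 9.26 and 8.48) and Hoxb9 (8.66, 8.02 and 9.004) overlapped from neighbour to neighbour. By cluster, 7 of 11 Hoxa, 5 of 10 Hoxb, 8 of 9 Hoxc and 2 of 9 Hoxd genes were expressed. By position, 1 of 8 genes of paralogue groups 1 to 3, 13 of 15 of groups 4 to 8, 6 of 7 of groups 9 and 10 and 2 of 9 of groups 11 to 13 were expressed. Of the 39 Hox genes 7 share 20% or more of their exon bases with another gene, so their values are uncertain in these counts. The expressed gene of groups 1 to 3 was Hoxa2 (1.39, 1.13 and 1.91 FPKM), and those of groups 11 to 13 were Hoxc11 and Hoxc13 (3.16, 2.55 and 2.899 FPKM). Of Hoxd genes only Hoxd8 (5.81, 6.57 and 5.86) and Hoxd9 (1.61 ± 0.248) were expressed, while Hoxd1, Hoxd3 and Hoxd12 were listed at 0, Hoxd3 with 62.8% of its exon bases shared.

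**Figure D5:**
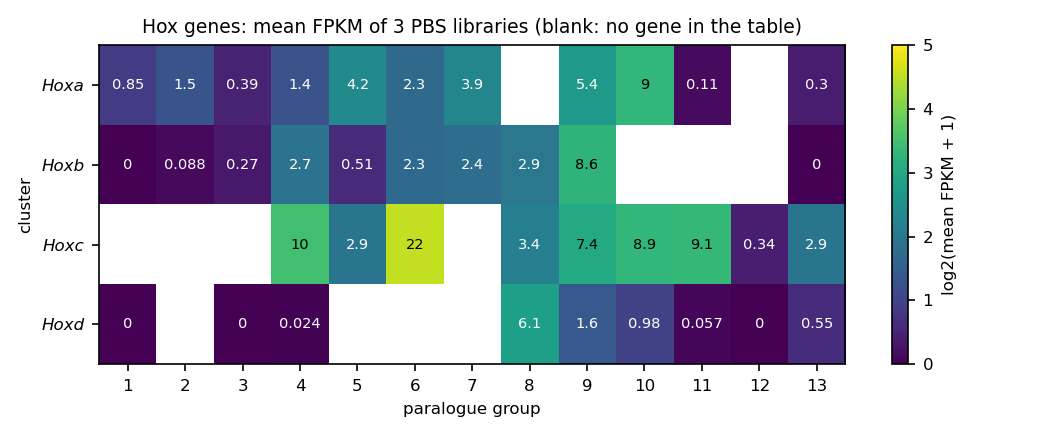
Mean FPKM of the 39 Hox genes, by cluster (vertical) and paralogue group (horizontal), with colour for log2(mean FPKM + 1) and the mean printed in each cell. Most expressed genes lie in groups 4 to 10, with Hoxc6 highest at 22.2 FPKM.

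Of 52 mesenchymal transcription factors 31 were expressed (59.6%, against 46.7% of all genes). Prrx1 led, followed without overlap by Tbx15, a T-box factor of limb and trunk mesenchyme, at 37.7, 38.2 and 37.1 FPKM. The mesenchymal state factors Twist1 (28.4, 26.03 and 28.7) and Snai2 (25.95, 25.4 and 26.3) overlapped, and Zeb1 had 19.8 ± 0.488 FPKM. The homeobox factor Prrx2 had 11.4 ± 0.692 FPKM and the zinc finger factor Osr1 11.1 ± 0.980, and the gut and lung mesenchyme factors Foxf1 and Foxf2 had 7.08 ± 0.261 and 5.99 ± 0.886. Tbx5, a forelimb factor, had 3.46, 2.74 and 2.94 FPKM and Tbx4, its hindlimb relative, 0.724, 0.605 and 0.767, while Pitx1, another hindlimb factor, had 3.65, 2.91 and 3.15. Of the pluripotency genes only Klf4 was expressed (13.7, 13.9 and 13.1), a gene that fibroblasts also use, and Pou5f1 was listed at 0 with Nanog at 0.194 ± 0.117 FPKM.

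All 20 proliferation genes were expressed, each with a mean of 10 FPKM or more. The topoisomerase Top2a had 128, 124 and 126 FPKM, Pcna 103, 111 and 112 and the proliferation antigen Mki67 66.6, 65.6 and 60.8. Cdk1, Ccnb1, Ccnb2 and Mki67 lay between 64.3 and 68.0 FPKM on average and overlapped from neighbour to neighbour. Of the list of cell cycle inhibitors and the p53 axis 17 of 18 were expressed (94.4%), with a median of 23.8 FPKM. Cdkn2a, whose locus encodes p16 and ARF, had 231, 244 and 236 FPKM, above every other gene of its list in each library. Cdkn1a, the p53 target p21, had 31.8, 29.2 and 29.9 FPKM, Trp53 itself 33.3, 33.4 and 35.1 and Mdm2 26.05, 25.2 and 25.6. Rb1 had 5.17 ± 0.194 FPKM and the telomerase gene Tert 1.016, 1.25 and 1.151. The deposited table gives 1 value for Cdkn2a, so its transcripts cannot be told apart, and transcripts of SV40 were not analysed here.

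Of the antigen presentation genes 16 of 22 were expressed. B2m, the light chain of class I molecules (chr2:122147686-122153083, plus strand), had 1629, 1832 and 1679 FPKM, and the heavy chains H2-D1 and H2-K1 had 287, 289 and 287 and 235, 235 and 234, though these near-identical genes share sequence and their split is uncertain. The peptide transporter Tap1 had 17.7 ± 0.902 FPKM and the class I activator Nlrc5 7.498 ± 0.295. Genes of class II stood lower: H2-Aa was listed at 0, H2-Ab1 had 0.916, 1.148 and 0.901 FPKM and the class II activator Ciita 0.00587, 0 and 0, while the invariant chain Cd74 was expressed at 1.6004, 1.46 and 1.23. The costimulator Cd80 had 1.95, 1.73 and 2.23 FPKM and Cd86 was listed at 0.

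The most abundant transcripts were those of mitochondria and translation. The 10 highest genes took 11.3 ± 0.31% of the summed FPKM, and mt-Co1, a subunit of cytochrome oxidase, had 8803, 9400.2 and 9192 FPKM. Mitochondrially encoded genes made up 7.74 ± 0.294% and ribosomal protein genes 8.59 ± 0.263%. Outside these sets Eef1a1, the elongation factor of translation, had 4096, 4280.4 and 4155 FPKM, followed by Lgals1, B2m and Spp1. Ifitm3, an interferon-induced antiviral membrane protein, had 993, 1100.3 and 992 FPKM, and the glycolytic Pgk1 1042, 993 and 1046. Of the cytoskeleton genes Actb had 830.0, 819 and 836 FPKM, and all 24 were expressed, Tuba1a at 351 ± 9.88 with 26.2% of its exon bases shared.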

How the data were processed

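RNA of 3 libraries of the stromal line in PBS was analysed. Per the labels' protocols total RNA was isolated with Trizol, and per the submitters' processing notes cutadapt 1.15 and the build mm10 were used. The sources used here do not name the aligner, the counting program or its strand. The authors deposited FPKM for 21959 genes, as the file header names them. The log2 fold changes and p-values that the authors also deposited were not used. Exon lengths were the merged exon bases of all GENCODE M21 transcripts of a gene (21851 genes). Multiplied by these, FPKM under 1000 fragments came to whole fragments within 0.01 for 97.2 to 97.3% of values, which gave the depth.

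Expressed means at least 1 FPKM in each library. There was no test, since 1 group is described. A count of 0 allows 3 fragments, and such floors cover counting error only. Genes with 20% or more of exon bases under exons of another gene (1613) are uncertain. The 65 gene lists, 1375 genes in all, and the members were chosen with earlier results of these data known. Named genes are the 20 highest, the 5 markers, up to 8 highest members of a list (5 for other cell types) and defining members among the first 6. Some of the genes that this rule names are not reported here. Other members, the ligand pairs and the families in the closing section were named after their values were seen. Symbols not matched in the table, such as Xist and Ighm, were not analysed here. The count of expressed genes was tested on simulated data. Alternatives were limits of 0.5 and 2 FPKM, the mean in place of each library, TPM with and without mitochondrial genes, median-ratio scaling, a filter on zeros, pseudocounts of 1 and 0.1, leaving out each library, and, added after seeing the data, leaving out overlapped genes. Python 3.11.15, numpy 2.4.6, pandas 2.3.3 and matplotlib 3.10.9 were used.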

Additional observations from a re-analysis of the deposited data

How the results depend on the processing

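Across the alternatives the number of expressed genes ran from 9241 at a limit of 2 FPKM to 11543 on the TPM scale without mitochondrial genes, and expressed list members from 546 to 731 around 617, all within 1.5 times. With a library left out they were 10310 to 10330 genes and 619 to 621 members. The share of the 10 highest genes became 6.70% without mitochondrial genes and 12.1% without ribosomal protein genes, as sums over fewer genes, and was 11.1 to 11.4% with a library left out. The spread on the log2 scale was 0.0605, and 0.0450 to 0.0539 with a library left out. TPM values are larger than FPKM, since summed FPKM was 264046 to 270894 per library, and 446 of 510 named genes moved by over 1 SD on that scale, while none did with median-ratio scaling, the median or a library left out. List counts moved by over 1.5 times for 15 lists on the TPM scale, 17 without mitochondrial genes, 6 at 0.5 FPKM and 7 at 2 FPKM. Leaving out library 3 made the muscle count 2. Reading depth limits levels below about 0.168 FPKM in a gene of 1 kb. No paired analysis was possible because 1 group is described and no result comes from a test.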

Other observations

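The groups in this section were chosen after their values were seen. Of 20 genes that interferons induce 19 were expressed, with a median of 21.6 FPKM. They were picked with their values known, so this count cannot be weighed against the 46.7% of all genes. Bst2, the tetherin that holds budding virus, had 317, 336 and 308 FPKM, the ubiquitin-like Isg15 209, 215 and 207 and the transcription factor Irf7 43.0, 39.0 and 40.9. Ifit1, which binds foreign RNA, had 69.0, 68.1 and 75.3 FPKM. Of whole families, 4 of 6 Ifit genes, 8 of 12 Oas genes and 2 of 7 Ifitm genes were expressed. Oas1a had 40.2 ± 1.33 FPKM and Oasl2 41.6 ± 1.73, but the Oas1 genes are near-identical copies, so their split is uncertain. Mx1, an antiviral GTPase that is defective in many laboratory strains, had 1.10, 0.841 and 0.759 FPKM, under the limit in libraries 2 and 3. No interferon gene was expressed, and 18 of 20 were listed at 0: Ifnb1 had a value in library 3 alone, 0.0437 FPKM on average, and Ifng was listed at 0.

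All 16 glycolysis genes were expressed, with a median of 97.8 FPKM. Below Pgk1 stood Ldha, which makes lactate, at 528, 519.9 and 541 FPKM, Tpi1 at 469, 465 and 456, Pkm at 408 ± 6.10 and Eno1 at 408 ± 20.5. Gapdh had 92.1, 95.2 and 93.6 FPKM, below Ldha in every library, but Gapdh has many processed pseudogenes that can share its fragments. The glucose transporter Slc2a1 had 55.3 ± 4.61 FPKM and the lactate exporter Slc16a3 33.8 ± 1.71. All 4 Steap genes, a family that includes reductases of iron and copper, were expressed, Steap4 at 79.4, 80.0 and 75.0 FPKM and Steap1 at 47.2 ± 0.611.

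Some genes stood out in families that were otherwise at or near 0. Klra4, of the Ly49 receptors known from NK cells (chr6:130043731-130067271, minus strand), had 90.5, 100.3 and 96.1 FPKM. Of 27 killer cell lectin-like receptors 3 were expressed, Klra4, Klra2 (5.71 ± 0.612) and Klra6 (3.72 ± 0.132), and 18 were listed at 0. The Klra genes are near-identical copies, so the split among them is uncertain. The NK cell genes Ncr1, Gzma and Prf1 were listed at 0. Prl2c2, the prolactin relative proliferin (chr13:12996125-13005383, minus strand), had 40.3, 57.2 and 46.1 FPKM, highest in library 2, beside Prl2c3 at 2.49 ± 0.574, and 15 of 26 prolactin family genes were listed at 0. Prl2c2 and Prl2c3 are also near-identical copies.

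By the gene ontology terms in the deposited table, genes of the extracellular region made up 11.2 ± 0.0726% of the FPKM outside mitochondrially encoded genes. Of these 1860 genes 524 were expressed (28.2%, under the 46.7% of all genes). Genes of the collagen-containing matrix made up 5.67 ± 0.0510% and cytokine activity 1.58 ± 0.00798%. The terms are broad: the matrix term holds Rpsa (583 FPKM) and the glycolytic Pkm (408), both above Col1a2 (331). The extracellular term holds the chaperone gene Hsp90ab1 (1091). These shares are therefore not those of matrix and secreted proteins alone. Of 1943 genes with G protein-coupled receptor activity 51 were expressed, and of 1156 olfactory receptors 1 was. Of the 4803 genes with a mean of 10 FPKM or more, 174 had a coefficient of variation above 10% and 5 above 20%. These 5 were Gm10226 (6.81, 11.1 and 12.3 FPKM), Smim26 (9.98, 12.9 and 8.25), the antioxidant enzyme Nqo1 (22.6, 34.8 and 27.8), Mrpl41 (10.5, 14.8 and 10.3) and Ptx3 (26.7, 34.8 and 23.01). Library 2 was the highest for Smim26, Nqo1, Mrpl41 and Ptx3, and library 1 the lowest for Gm10226 and Nqo1.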
